A study of Homo sapiens with 6 samples.

Results

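The LIN28B, HMGA2 and IGF2BP oncofetal axis was followed through 10 genes, chosen by name as regulators and targets of the let-7 microRNAs: LIN28A, LIN28B, HMGA1, HMGA2, IGF2, IGF2BP1, IGF2BP2, IGF2BP3, ARID3B and DICER1. All 10 symbols were matched to 1 identifier each among the 60617 gene identifiers of the count files. Gene expression had been measured by RNA sequencing in 6 xenograft tumors of WM983-B, an established human melanoma line. Of these, 3 tumors came from systemic treatment with anle138b, a diphenyl-pyrazole compound that binds oligomers of α-synuclein, and 3 were labelled as having no treatment. Every tumor is of this 1 line grown in a host, and the host's strain, sex and age, the dose and the duration do not appear in the labels. The sample titles fall into a blau set (anle138b replicate 3 and untreated replicate 3) and a Juni2018 set (anle138b replicates 1 and 2 and untreated replicates 1 and 2), and the labels do not say what these names stand for. The axis genes were picked with both contrasts in view, blau against Juni2018 titles and anle138b against untreated. Their values in these contrasts are therefore descriptions, and no single gene among them is given a p-value in these contrasts. Counts of calls among them stand only beside the share called over all genes.

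LIN28A and LIN28B are RNA-binding proteins that block the maturation of let-7 and are active mainly in embryonic tissue and in some tumors. Mature let-7 in turn represses transcripts that carry a match to its seed, among them LIN28B itself, the chromatin architectural gene HMGA2 and the mRNA-binding IGF2BP genes. These genes are high before birth, low in most adult tissues and expressed again in many cancers, and let-7 and its targets form a feedback loop. A library of this kind reads messenger RNA, so mature let-7 was not measured.

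The let-7 sequences are shown because 1 seed defines the whole target set. RefSeq (GRCh38.p14) listed 12 let-7 family hairpins with 9 distinct mature 5p sequences, and all shared the seed GAGGUAG at bases 2 to 8, in capitals here. The last line is the let-7g hairpin (chr3:52268278-52268361, minus strand), with the letters GGAG, the motif that LIN28 proteins recognise in let-7 precursors, in capitals. GGAG followed the mature sequence in 9 of the 12 hairpins.
hsa-let-7a-5p: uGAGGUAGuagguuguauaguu
hsa-let-7g-5p: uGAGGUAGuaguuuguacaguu
hsa-miR-98-5p: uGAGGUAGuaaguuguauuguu
let-7g hairpin: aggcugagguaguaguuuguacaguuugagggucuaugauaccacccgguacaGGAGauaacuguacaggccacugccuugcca

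The letters CTACCTC, which pair with that seed, were searched on the mRNA strand of 1 annotated 3′ untranslated region per gene (GENCODE release 29, GRCh38). LIN28B, IGF2BP1 and HMGA2 held 4 matches each, of which 2, 3 and 1 were followed by an A. LIN28A, HMGA1, IGF2BP2, IGF2BP3 and ARID3B held 1 match each, and IGF2 and DICER1 held 0 in the region searched. At least 1 match was found in 8.6% of the 19098 genes with such a region. Among genes whose region was 0.8 to 1.25 times as long, the share was 23.5% for the length of LIN28B, 29.8% for that of IGF2BP1 and 14.8% for that of HMGA2. For each gene with a match except LIN28A, 1 match is printed below with its flanks, the pairing letters in capitals. The pairing letters are the same in each, and the genes differ in how many matches they hold, as given above. A match is a string of letters and not a measured site. The printed stretches lie at chr6:105078815-105078838 (LIN28B), chr17:49051064-49051087 (IGF2BP1), chr12:65963301-65963324 (HMGA2), chr3:185644216-185644239 (IGF2BP2), chr7:23311791-23311814 (IGF2BP3), chr6:34245832-34245855 (HMGA1) and chr15:74598104-74598127 (ARID3B). IGF2BP2 and IGF2BP3 are on the minus strand and the others on the plus strand.
LIN28B: cggttgcaaagtCTACCTCatgca
IGF2BP1: gtgcgaagtaaaCTACCTCaaggt
HMGA2: aacgttcgatttCTACCTCagcag
IGF2BP2: acacagaagaagCTACCTCaggtg
IGF2BP3: atttttactcaaCTACCTCaggta
HMGA1: tctgttcacaaaCTACCTCtggac
ARID3B: ttcaataaacctCTACCTCttcac

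Gene counts summed to 27599159 and 22768826 in the blau tumors and to 12400782 to 15865560 in the 4 Juni2018 tumors, so the blau libraries were the deeper ones. A level of 3 counts stood for 0.109 to 0.242 CPM (counts scaled to library size), for counting error only. The melanocytic label held: 10 melanocyte lineage markers such as SOX10, MITF and PMEL summed to 14700 to 16100 CPM in blau tumors and 15900 to 19400 CPM in Juni2018 tumors. These sums overlapped, and the lowest was in blau. By the fit 4 of the 10 were higher and 0 lower in blau, where 8.32% of all genes were higher and 7.14% lower. Nothing in the labels says that tumors came from separate animals, so errors describe the spread between these libraries. Of the 10 axis genes, 6 passed the low-count filter of the fit across all genes. LIN28B and IGF2BP1 did not, because only the 2 blau tumors reached the minimum and the filter asked for 3. LIN28A and IGF2 were too low in every tumor.

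LIN28B, HMGA2 and IGF2BP1 were divided by the naming of the tumors and not by treatment. They were expressed in both blau tumors, and in the Juni2018 tumors they were near the counting floor or an order of magnitude lower. IGF2BP2 and DICER1 differed modestly in the same direction, HMGA1 in the opposite one, and IGF2BP3 and ARID3B little. Fits across all genes included treatment and naming set together, and log2 fold changes are from those fits with standard errors (SE).

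**Figure D1:**
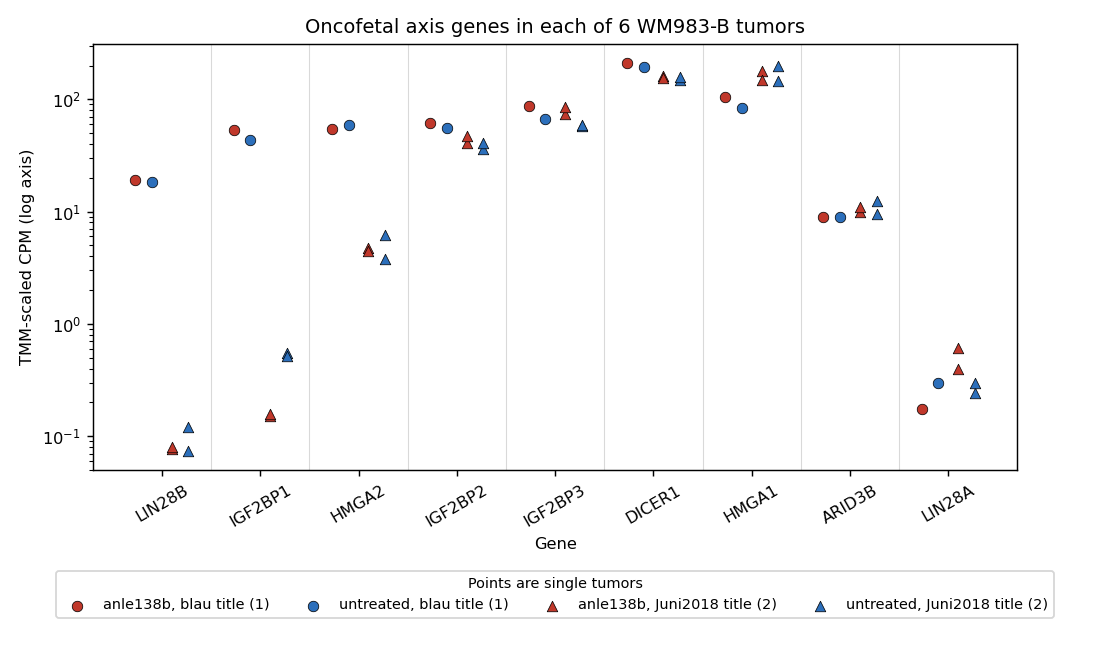
Levels of 9 axis genes in each tumor, in TMM-scaled CPM on a log axis. Circles are tumors with blau titles and triangles those with Juni2018 titles, red for anle138b and blue for untreated. LIN28B stood at 19 and 18.2 CPM in the anle138b and untreated blau tumors and at 0.0738 to 0.121 CPM in Juni2018 tumors, and IGF2 had no count in any tumor and is not drawn.

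LIN28B (ENSG00000187772, chromosome 6, 104936616 to 105083332, plus strand) encodes the LIN28 paralog most often active in tumors. It had 540 counts in the anle138b and 431 in the untreated blau tumor, against 1 and 1 in the anle138b and 2 and 1 in the untreated Juni2018 tumors. The sets did not overlap, and each Juni2018 tumor was below 3 counts. Pooled over tumors, 971 counts in blau against 5 in Juni2018 gave a ratio of 218 at equal depth, with an exact 95% interval of 93.2 to 674 for counting error only. The level was 18.6 ± 0.584 CPM in blau tumors (SD, n = 2).

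LIN28B-AS1, a non-coding gene on the opposite strand that shares 67 exon bases with LIN28B, showed the same division, with 14 and 8 counts in the blau tumors and 0 in each Juni2018 tumor. The kit does not mark strand, so reads in the shared stretch cannot be told apart. LIN28A, the paralog on chromosome 1, did not follow. It had 5 and 7 counts in the anle138b and untreated blau tumors, against 8 and 5 in anle138b and 4 and 4 in untreated Juni2018 tumors. These few counts overlapped between the sets, and no difference was detectable at this depth.

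IGF2BP1 (ENSG00000159217, chromosome 17, 48997412 to 49055650, plus strand) encodes an oncofetal protein that binds and stabilises mRNAs. It had 1527 counts in the anle138b and 1023 in the untreated blau tumor, against 2 and 2 in anle138b and 9 and 7 in untreated Juni2018 tumors. The blau tumors lay far above all others. Pooled, 2550 counts in blau against 20 in Juni2018 gave a ratio of 143, with an exact 95% interval of 92.6 to 235 for counting error only. That interval leaves out the spread between tumors. In CPM the levels were 48.4 ± 7.49 in blau (SD, n = 2) and 0.344 ± 0.217 in Juni2018 (SD, n = 4).

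HMGA2 (ENSG00000149948, chromosome 12, 65824131 to 65966295, plus strand) encodes an AT-hook protein that bends DNA, and it is a long-known let-7 target. It stood at 54.7 and 58.6 CPM in the anle138b and untreated blau tumors, against 4.73 and 4.46 CPM in anle138b and 6.19 and 3.77 CPM in untreated Juni2018 tumors. Unlike LIN28B and IGF2BP1 it was measurable in every tumor, with 51 to 102 counts in the Juni2018 set. The log2 fold change of blau over Juni2018 was 3.56 ± 0.16 (SE). Within anle138b tumors alone the blau tumor exceeded the Juni2018 mean by 3.54 on the log2 scale, and within untreated tumors by 3.57.

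HMGA2-AS1 and RPSAP52, at the HMGA2 locus, were higher too. HMGA2-AS1, an antisense gene that shares 384 exon bases with HMGA2, had 341 and 399 counts in blau tumors and 16 to 36 in Juni2018 tumors, a log2 fold change of 2.99 ± 0.23 (adjusted p = 4.76e-05, edgeR quasi-likelihood test). RPSAP52, a pseudogene transcript that runs in the opposite direction from the HMGA2 start, had 32 and 31 counts in blau tumors and 2 to 4 in Juni2018 tumors. Without strand, reads of HMGA2 and HMGA2-AS1 in the shared bases cannot be told apart. HMGA2-AS1 starts 0.058 Mb from the HMGA2 start, inside the HMGA2 gene, so unspliced HMGA2 reads over its exons cannot be told apart either.

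The IGF2BP family did not move as a block. IGF2BP2 (ENSG00000073792, chromosome 3), a paralog with roles in metabolism and mRNA stability, stood at 61.8 and 55.8 CPM in the anle138b and untreated blau tumors, against 47.0 and 41.1 CPM in anle138b and 36.4 and 41.1 CPM in untreated Juni2018 tumors. The sets did not overlap, with a log2 fold change of 0.51 ± 0.11. IGF2BP3 (ENSG00000136231, chromosome 7), the third paralog and a marker of aggressive tumors, stood at 86.6 and 66.8 CPM in the anle138b and untreated blau tumors and at 57.4 to 86.2 CPM in Juni2018 tumors. Here the sets overlapped, with a log2 fold change of 0.16 ± 0.10. MALSU1, a gene of mitochondrial ribosome assembly on the opposite strand, shares 17.9% of the exon bases of IGF2BP3, and its own blau over Juni2018 change was 0.22 ± 0.13.

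HMGA1 (ENSG00000137309, chromosome 6), the paralog of HMGA2 with a similar DNA-binding mode, went the other way. It stood at 105 and 83.6 CPM in the anle138b and untreated blau tumors, against 178 and 149 CPM in anle138b and 146 and 197 CPM in untreated Juni2018 tumors. Both blau tumors were below all 4 others, and the log2 fold change was -0.83 ± 0.15. Processed copies of HMGA1 elsewhere in the genome held few counts, at most 28 in any tumor for HMGA1P4 and 17 for HMGA1P2, so reads split among copies were few where the counting kept them.

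DICER1 (ENSG00000100697, chromosome 14), the nuclease that cuts precursor microRNAs including let-7, had a level of 201 ± 11.1 CPM in blau tumors (SD, n = 2) and 155 ± 4.63 CPM in Juni2018 tumors (SD, n = 4). The sets did not overlap, and the log2 fold change was 0.38 ± 0.09. ARID3B (ENSG00000179361, chromosome 15), a DNA-binding let-7 target, stood at 8.94 and 8.90 CPM in the anle138b and untreated blau tumors and at 9.52 to 12.5 CPM in Juni2018 tumors. Its blau values were just below the others, with a log2 fold change of -0.25 ± 0.16.

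IGF2 (ENSG00000167244, chromosome 11, 2129112 to 2149603, minus strand), the fetal growth factor whose mRNA gave the IGF2BP family its name, was listed at 0 in all 6 tumors. In GENCODE release 29, 75.0% of its exon bases are shared with exons of other genes, among them the readthrough gene INS-IGF2 and a second IGF2 identifier, and these were also listed at 0. No source used here gives the setting for reads that fall on several genes, so the 0 does not give a level of IGF2.

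Over the 6 axis genes in the fit, 3 were higher and 1 lower in blau tumors at an adjusted p under 0.05 (edgeR). Over all 20423 genes tested, 15.5% passed, 8.32% higher and 7.14% lower. Since the list was drawn up with this contrast in view, nothing is read from its share. With genes filtered by naming set, an alternative chosen after seeing the data, LIN28B and IGF2BP1 entered the fit, and 18.7% of 21958 genes passed, 10.8% higher and 7.95% lower. Both had passed that filter through the set where they are high.

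**Figure D2:**
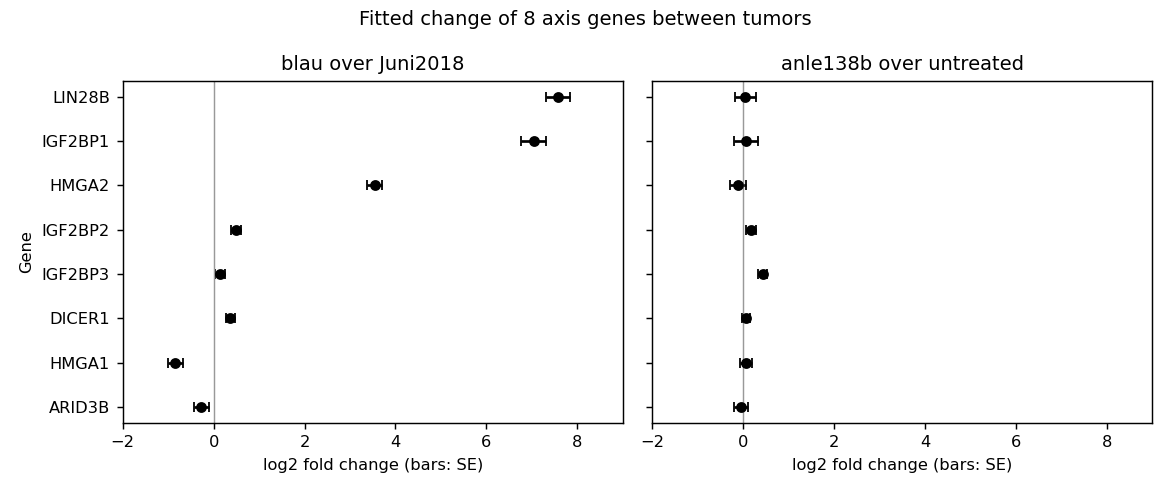
Fitted log2 fold changes of 8 axis genes with genes filtered by naming set, blau over Juni2018 on the left and anle138b over untreated on the right. Points are estimates and bars are SE. LIN28B (7.58), IGF2BP1 (7.04) and HMGA2 (3.54) stand apart on the left, where the first pair rests on a handful of Juni2018 counts and depends on the prior count, and on the right all 8 lie between -0.12 and 0.43.

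Levels of different genes were compared per length, as TPM (counts per exon length, scaled to the same sum in each tumor). In the blau tumors the order of mean TPM was HMGA1 (143), DICER1 (58.0), IGF2BP2 (44.0), IGF2BP3 (31.9), IGF2BP1 (18.8), HMGA2 (13.0), LIN28B (11), ARID3B (5.09) and LIN28A (0.209). In the Juni2018 tumors it was HMGA1 (209), DICER1 (36.9), IGF2BP2 (25.7), IGF2BP3 (24.1), ARID3B (5.03), HMGA2 (0.915), LIN28A (0.282), IGF2BP1 (0.109) and LIN28B (0.0431). IGF2BP1 lay below both paralogs in every tumor, above HMGA2 and LIN28B in mean level in blau tumors, and below ARID3B in Juni2018 tumors. IGF2BP2 and IGF2BP3 overlapped in the Juni2018 set, with 23.1 to 32.6 TPM and 18.6 to 33.2 TPM. The exon length used for HMGA2, 15403 bases, counts all annotated isoforms, so its TPM is low relative to the others.

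Between anle138b and untreated tumors most axis genes differed by less than the spread within a group. In the blau pair LIN28B stood at 19 CPM with anle138b and 18.2 CPM untreated, and in Juni2018 tumors it was under the floor in both groups, so no fold is given there. IGF2BP1 stood at 53.7 CPM with anle138b and 43.1 CPM untreated in the blau pair, and at 0.152 and 0.159 CPM with anle138b and 0.546 and 0.517 CPM untreated in Juni2018 tumors. HMGA2 averaged 21.3 ± 28.9 CPM in anle138b tumors and 22.9 ± 31.0 CPM in untreated tumors (SD, n = 3 each), a spread made by the naming sets, and its log2 fold change with the set term was -0.12 ± 0.17. Fitted changes were 0.06 ± 0.14 for HMGA1, 0.07 ± 0.09 for DICER1, -0.05 ± 0.16 for ARID3B and 0.17 ± 0.10 for IGF2BP2.

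IGF2BP3 was the 1 axis gene whose treatment groups did not overlap. How many of all genes separate in this way was not counted, so nothing is read from it. It stood at 74.3, 86.2 and 86.6 CPM in anle138b replicates 1 to 3, against 57.4, 59.4 and 66.8 CPM in untreated replicates 1 to 3. Every treated tumor lay above every untreated one, and this held inside each naming set. The means were 82.4 ± 6.98 CPM with anle138b and 61.2 ± 4.95 CPM untreated (SD, n = 3 each), a log2 fold change of 0.43 ± 0.10. MALSU1, which shares exon bases with it, had a change of -0.06 ± 0.12. Of the 6 axis genes in the fit, 0 passed an adjusted p under 0.05 by edgeR, against 1.05% of all 20423 genes (0.656% raised and 0.397% lowered). An unadjusted p under 0.05 was reached by 1 of the 6 and by 1734 of all genes. DESeq2 passed 1 and limma 0 of the 6, against 412 and 238 of all genes. Filtered by naming set, 0 of 8 axis genes passed by edgeR, against 1.02% of 21958 genes (0.633% raised and 0.387% lowered). Nothing is read from these counts, since the genes were named with this contrast in view.

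Whether the effect of anle138b differed between the naming sets was tested as an interaction, which played no part in choosing the genes. For the 6 axis genes in the fit the adjusted p ranged from 0.811 (HMGA1) to 0.989 (HMGA2) by edgeR's quasi-likelihood test. Across all genes 0 passed, with 1345 at an unadjusted p under 0.05, and DESeq2 passed 31 and limma 0. LIN28B and IGF2BP1 were not in this fit. Filtered by naming set, their interactions were 0.40 ± 1.02 (adjusted p = 0.974) and 2.05 ± 0.58 (adjusted p = 0.653), by the same edgeR test. Both genes passed that filter through the blau tumors, and both values rest on a handful of Juni2018 counts.

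The genes around the axis were read from lists drawn up by role, with earlier results of these data known. Their p-values, and that of HMGA2-AS1 above, therefore describe these genes and are not independent support. For comparison, over all 20423 genes edgeR passed 15.5% between the sets and 1.05% under anle138b. An unadjusted p under 0.05 was reached by 6553 of them between the sets and 1734 under anle138b. DESeq2 passed 3104 between the sets and 412 under anle138b, and limma 3399 and 238. In the list of let-7 processing and decay, 19 of 20 genes entered the fit, and 0 were higher and 0 lower in blau tumors by edgeR, with a median log2 fold change of -0.05 against -0.02 over all genes. An unadjusted p under 0.05 was reached by 4 of the 19, and DESeq2 and limma passed 0. XPO5, which exports precursor microRNAs from the nucleus, had a log2 fold change of -0.24 ± 0.10 (adjusted p = 0.125), and DIS3L2, the nuclease that degrades uridylated let-7 precursors, by -0.24 ± 0.10 (adjusted p = 0.129). TRIM71, an embryonic let-7 target and RNA-binding ubiquitin ligase, was too low to enter. Under anle138b 0 of the 19 passed by edgeR, DESeq2 or limma, 0 had an unadjusted p under 0.05, and the median was 0.00 against -0.01 over all genes.

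Transcripts that host let-7 genes moved in both directions between the sets. The median of the 6 in the fit was 0.28 against -0.02 over all genes. An unadjusted p under 0.05 was reached by 5 of them, edgeR and limma passed 2 each and DESeq2 passed 3. Of 6 in the fit, MIR99AHG, which hosts let-7c, was higher in blau tumors by 0.73 ± 0.12 (adjusted p = 0.00523). MIRLET7BHG, next to let-7a-3 and let-7b, was lower by a log2 fold change of -0.61 ± 0.14 (adjusted p = 0.0231). The level of a host transcript is not the level of its mature microRNA. Under anle138b 0 of the 6 passed by edgeR, DESeq2 or limma, 1 had an unadjusted p under 0.05, and the median was 0.06.

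Of 34 other known let-7 targets listed, 30 entered the fit. By edgeR 2 were higher in blau tumors, 1 was lower and 27 did not pass, where 15.5% of all genes passed, and the median was 0.03 against -0.02 over all genes. An unadjusted p under 0.05 was reached by 11 of the 30, and DESeq2 passed 4 and limma 5. THBS1, a secreted matrix glycoprotein, was higher in blau tumors by 0.86 ± 0.15 (adjusted p = 0.00528), and BACH1, a transcription factor, by 0.40 ± 0.10 (adjusted p = 0.0236). AURKB, a mitotic kinase, was lower, with a log2 fold change of -0.69 ± 0.17 (adjusted p = 0.0279). Under anle138b 0 of the 30 passed by edgeR, DESeq2 or limma, 1 had an unadjusted p under 0.05, and the median was 0.04. CCND2, the D-type cyclin on chromosome 12, failed the filter for the same reason as LIN28B and is named after its values were seen. It had 281 and 334 counts in the anle138b and untreated blau tumors, against 1 and 1 in anle138b and 6 and 2 in untreated Juni2018 tumors.

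The same question was put to all genes by the number of CTACCTC matches, with axis genes left out. Of 145 genes with 2 or more matches, 11.7% were higher and 7.59% lower in blau tumors, with a median log2 fold change of 0.05. Of 1165 genes with 1 match the shares were 14.2% and 7.90% and the median 0.02. Of 12246 genes with 0 matches they were 9.90% and 8.65% and the median -0.03. The groups also differ in the median length of the region searched, 5124, 2681 and 975 bases, and no test was made.

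Of the genes of the IGF2 locus and its control, 9 of 14 entered the fit, and 1 was higher and 1 lower in blau tumors. PLAG1, a zinc-finger factor that activates IGF2 transcription, had 537 and 319 counts in the anle138b and untreated blau tumors and 18 to 29 in Juni2018 tumors, a log2 fold change of 3.15 ± 0.21 (adjusted p = 2.05e-05). IGF1, the related growth factor, was lower in blau tumors, with 2.88 and 4.68 CPM against 9.47 to 11.8 CPM in Juni2018 tumors and a log2 fold change of -1.51 ± 0.19 (adjusted p = 0.00107). The other 7 did not pass by edgeR, and the list median was 0.12. An unadjusted p under 0.05 was reached by 5 of the 9, and DESeq2 and limma passed 3 each. H19, the imprinted non-coding RNA beside IGF2, and PLAGL1, an imprinted zinc-finger factor, failed the filter and are named after their values were seen. H19 had 117 and 79 counts in blau tumors and 4 to 8 in Juni2018 tumors, and PLAGL1 had 131 and 88 counts in blau and 3 to 10 in Juni2018 tumors. Under anle138b 0 of the 9 passed by edgeR, DESeq2 or limma, 1 had an unadjusted p under 0.05, and the median was 0.03.

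In the list of oncofetal and pluripotency genes 8 of 16 entered the fit and 1 was higher in blau tumors. That gene was GPC3, a fetal heparan sulfate proteoglycan, with 116 and 86 counts in blau and 15 to 24 in Juni2018 tumors (log2 fold change 1.44 ± 0.24, adjusted p = 0.00528). The list median was -0.06. NANOG and AFP had at most 1 count in any tumor. Under anle138b 0 of the 8 passed by edgeR, 3 had an unadjusted p under 0.05, the median was 0.03, and limma passed 0. DESeq2 passed 1, SOX2, a neural and stem cell factor, whose log2 fold change was -0.66 (edgeR adjusted p = 0.0703). TFAP2C, a germ cell factor, had a log2 fold change of 0.56 (edgeR adjusted p = 0.268).

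**Figure D3:**
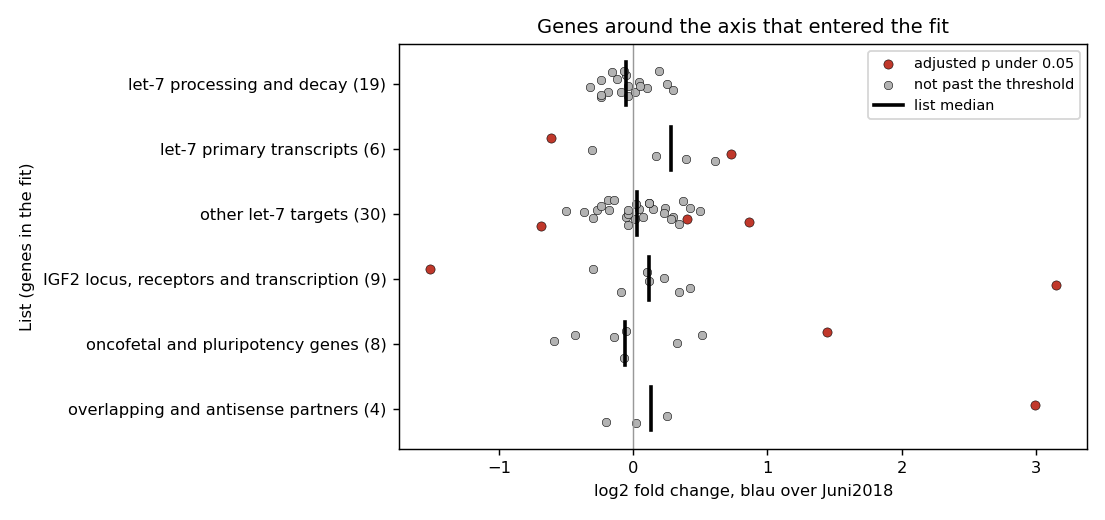
Log2 fold change of blau over Juni2018 for each gene of 6 lists that entered the fit, with the number of genes in brackets. Red points passed an adjusted p under 0.05, grey points did not, and the black bar is the list median. The medians lie between -0.06 and 0.28, and PLAG1 (3.15) and HMGA2-AS1 (2.99) stand farthest to the right.

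Within 1 Mb of the LIN28B start 8 genes were in the fit. By edgeR, DESeq2 and limma 0 of them passed between the sets, 0 had an unadjusted p under 0.05, and their changes ranged from -0.27 to 0.48 with a median of 0.20. Within 1 Mb of the HMGA2 start 2 of 14 genes were higher and 1 was lower, the highest being HMGA2-AS1, and the median was 0.06. Within 1 Mb of the IGF2BP1 start 3 of 34 were higher and 2 lower, and the median was -0.02. HOXB9, a homeobox gene of the cluster beside IGF2BP1, was the highest of the 34 at 2.47 (adjusted p = 0.00149). For comparison, 8.32% of all genes tested were higher and 7.14% lower between the sets.

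**Figure D4:**
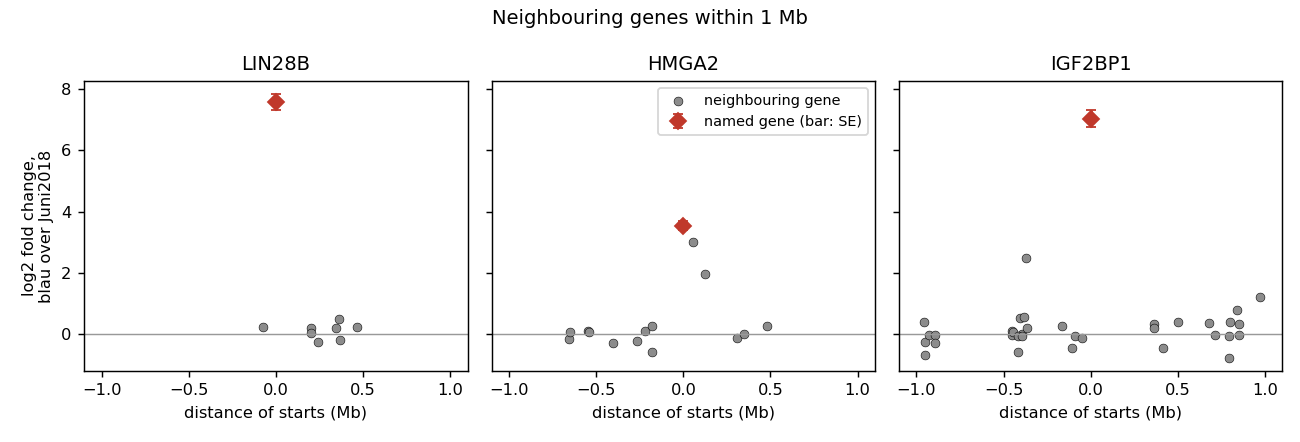
Log2 fold change of blau over Juni2018 for genes within 1 Mb of the starts of LIN28B, HMGA2 and IGF2BP1, by distance of starts in Mb. Red diamonds are the named genes with SE, from the fit filtered by naming set, and grey points are neighbours. All 8 neighbours of LIN28B lie between -0.27 and 0.48.

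Likeness to HMGA2 over the 6 tumors was measured by log2 CPM. Of 14013 genes with a symbol and a mean log2 CPM of at least 1, 44 had a Pearson r above 0.99 with HMGA2. The highest were MEGF10 (0.9982), DCAF6 (0.9977), NXN (0.9966), SLCO1A2 (0.9963) and DYRK4 (0.9962). In that order their log2 fold changes of blau over Juni2018 were 3, 0.21, 3.23, 2.32 and 1.74. A high r therefore does not give the size of the difference, which was small for DCAF6. With 2 tumors of 1 set and 4 of the other, a gene that is higher in blau with little spread inside the sets scores high. MEGF10 had 525 and 431 counts in blau tumors and 26 to 44 in Juni2018 tumors.

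Summed markers of fibroblasts, endothelium, muscle and immune cells did not overlap between the naming sets, the immune ones narrowly, and those of keratinocytes did. The share of all genes that do not overlap between the sets was not counted. The 10 fibroblast markers summed to 588 and 864 CPM in blau tumors and 443 to 548 CPM in Juni2018 tumors, and 3 of 10 were higher by the fit. The 7 endothelial markers summed to 16.8 and 19.3 CPM in blau and 8.64 to 11.5 CPM in Juni2018 tumors. Of 5 in the fit 1 was higher, KDR, with a list median of -0.46. KDR alone stood at 9.82 and 13.9 CPM in blau and 1.48 to 4.06 CPM in Juni2018 tumors, and the separation of the sums rests on it. The 9 muscle markers summed to 27.1 and 29.8 CPM in blau and 54.8 to 111 CPM in Juni2018 tumors, highest in anle138b replicate 2, and 3 of 5 in the fit were lower. Immune markers (8) summed to 19 and 19.2 CPM in blau and 13.3 to 18.3 CPM in Juni2018 tumors, and keratinocyte markers (6) to 21.2 and 25.8 CPM in blau and 17.7 to 24.4 CPM in Juni2018 tumors. Under anle138b 1 of the 10 fibroblast markers was higher by edgeR, and the fibroblast sums were 478 to 864 CPM with anle138b and 443 to 588 CPM untreated. For comparison, edgeR passed 15.5% of all genes between the sets (8.32% higher and 7.14% lower) and 1.05% under anle138b. No list had a marker at 0 in every tumor. The labels do not say how mouse reads were handled, and the part of these cells, of depth or of the naming sets themselves in the axis values was not tested. In bulk tumors a higher share of expressing cells and more RNA per cell cannot be told apart.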

How the data were processed

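Each tumor has 1 file of raw gene-level counts deposited by the authors. Per the labels' protocols, extraction used TRIzol, and the library kit (Illumina TruSeq RNA v2) does not mark strand. The submitters' processing notes name hg38, featureCounts 1.5.0-p1, STAR 2.5.2a and bcl2fastq 2.17.1.14. No source used here gives the annotation or how reads on several genes and mouse reads were handled.

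The tests used edgeR 4.0.16 (R 4.3.3): filterByExpr by treatment group (minimum count 10, total 15; 20423 genes), TMM scaling and the quasi-likelihood F test, two-sided, with treatment and naming set as terms (3 residual degrees of freedom; 2 for the interaction), Benjamini-Hochberg adjustment at 0.05. SEs were derived from the F statistic. Levels are TMM-scaled CPM, with 2 as the prior count on the log2 scale. The fits were tested on simulated data. Replicates were compared by chi-square (10.5 to 58.8 per degree of freedom), so each library counted once. Groups came from the treatment label and naming sets from the titles. Replicate numbers follow listing order and pair nothing. Alternatives were other scalings, filters, DESeq2 1.42.0, limma 3.58.1, subsets and leaving out each tumor.

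The axis genes and lists were chosen with earlier results of these data known. Named from the lists were up to 4 members with the largest change among those that passed, or else the 2 with the smallest p; not every gene so named is printed.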

Additional observations from a re-analysis of the deposited data

Results flagged for a closer look

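For 3 genes the treated tumors lay on opposite sides of the untreated ones in the naming sets. IGF2BP1 was higher with anle138b in the blau pair, by 0.32 on the log2 CPM scale, and both treated tumors were lower in the Juni2018 set, by -1.27, a difference of 1.59. In the main fit this difference was not tested, since IGF2BP1 failed the low-count filter and had 2 to 9 counts in the Juni2018 tumors. Filtered by naming set, its fitted interaction was 2.05 ± 0.58 (SE, adjusted p = 0.653, edgeR), which rests on those few counts. LIN28A was lower with anle138b in the blau pair (-0.50) and higher in the Juni2018 set (0.68), a difference of -1.18 that rests on 4 to 8 counts per tumor and was not tested. MIR99AHG, a let-7c host transcript, was lower in the blau pair (-0.07) and higher in the Juni2018 set (0.15), a difference of -0.22 (interaction adjusted p = 0.888, edgeR).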

How the results depend on the processing

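No paired analysis was possible because replicate numbers were given in listing order. Of the log2 values of single axis genes under all alternatives, 11 changed sign, and none of these had passed the threshold before or after the change. Leaving out 1 tumor in turn, the anle138b change ranged from -0.07 to 0.23 for HMGA1 (below 0 without replicate 3 of either group), -0.25 to 0.08 for HMGA2 (above 0 without untreated replicate 1) and -0.12 to 0.07 for ARID3B (above 0 without untreated replicate 2). HMGA1 was also at -0.07 in the Juni2018 set alone. Leaving out 1 Juni2018 tumor, the interaction ranged from -0.39 to 0.33 for HMGA2 (below 0 without untreated replicate 1), -0.12 to 0.07 for IGF2BP2 (above 0 without anle138b replicate 2 or untreated replicate 1), -0.18 to 0.03 for IGF2BP3 (above 0 without anle138b replicate 2) and -0.11 to 0.27 for ARID3B (below 0 without untreated replicate 2). By limma it was -0.01 for HMGA2. For blau over Juni2018 0 changed sign, and HMGA2 ranged from 3.42 to 3.73, HMGA1 from -1.03 to -0.61, IGF2BP2 from 0.46 to 0.59 and DICER1 from 0.35 to 0.46. IGF2BP3 ranged from 0.36 to 0.48 for anle138b. Axis genes raised by anle138b were 0, and 1 without a low-count filter and by DESeq2.

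Genes called for anle138b were 215, and 9 with no set term, 754 without a low-count filter, 412 by DESeq2, 92 in the Juni2018 set alone and 89 to 392 leaving out 1 tumor (lowest without anle138b replicate 3, highest without anle138b replicate 2; 143 without anle138b replicate 1, and 136 and 116 without untreated replicates 1 and 3). Genes called for blau over Juni2018 were 3157, and 6250 without a filter, 915 in anle138b tumors alone and 993 to 5960 leaving out 1 tumor (lowest without untreated replicate 3, highest without anle138b replicate 2). Axis genes raised there were 3, and 5 without a filter or filtered by naming set, 1 in anle138b tumors alone, and 1 to 5 leaving out 1 tumor, with 0 to 1 lowered. Genes called for the interaction were 0, and 262 without a filter, 31 by DESeq2 and 24 to 436 leaving out 1 Juni2018 tumor. Fewer tumors let LIN28B and IGF2BP1 through the filter; other causes were not tested. Depth limits LIN28A, and LIN28B and IGF2BP1 in the Juni2018 set.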
